A study of Oryctolagus cuniculus with 15 samples.

Results

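The genes described here are 10 regulators of entry into S phase and mitosis, chosen by name from their known roles, with earlier results of these data known, out of 23428 genes in the deposited tables, of which 15408 carry a symbol. They are the transcription factors E2F1, E2F2 and E2F3, the cyclin CCNE2, the kinase CDK6, the ubiquitin ligase subunit SKP2, the phosphatases CDC25A and CDC25B, and the kinases PKMYT1 and WEE1. They were measured by bulk RNA-seq in first-passage corneal keratocytes, the mesenchymal cells of the corneal stroma, from New Zealand white rabbit eyes. The cells were cultured on their substrates for 6 days in a defined serum-free medium, in which they had also been maintained beforehand, and the design asked how a collagen substrate, its fibrillar structure and its dimensionality relate to gene expression. Each of 5 conditions had 3 libraries, described by the study as separate experiments, with dishes or matrices pooled within a library.

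In the 2DC condition cells grew on a dish coated with bovine type I collagen and were incubated briefly in digestion medium before lysis. The 2DC_L cells grew on the same coating and were lysed directly, without digestion. The 2DF cells grew on top of a fibrillar collagen matrix. The 3DF cells were embedded inside such a matrix at 100000 cells per matrix, and the 3DF_50 cells at 50000 cells per matrix. All 3 fibrillar conditions received the digestion step. All cells were primary and unmodified, and the ages of the animals were not given in the sources used here.

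In a dividing cell, CDK6 with D-type cyclins and later CDK2 with cyclin E phosphorylate the RB protein, which releases the activating E2F factors E2F1, E2F2 and E2F3 to switch on genes for DNA replication. SKP2 is the substrate-recognition subunit of the SCF ubiquitin ligase that marks the CDK inhibitor p27 for destruction. WEE1 and PKMYT1 hold CDK1 inactive by phosphorylation, and the CDC25 phosphatases reverse this before mitosis. Keratocytes in the uninjured cornea are quiescent and re-enter the cycle mainly after injury or exposure to growth factors.

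Libraries held 14626982 to 31804255 counted reads. The summed level of 6 keratocyte markers, in FPKM (fragments counted per unit of gene length and of library size), lay between 20042 and 43020 in all 15 libraries. The summed FPKM of 6 corneal epithelium markers was 0.0699 to 0.846 in 2DC and 0.0719 to 0.698 in 2DC_L, with KRT12 at 0 in both, 0.685 to 5.72 in 2DF, 7.37 to 12.5 in 3DF and 0.0373 to 5.77 in 3DF_50. For 2 myofibroblast markers it was 4.67 to 7.11 in 2DC, 2.86 to 9.96 in 2DC_L, 1.38 to 3.50 in 2DF, 0.372 to 0.754 in 3DF and 0.256 to 0.620 in 3DF_50. For 4 corneal endothelium markers it was 346 to 491 on the coated dishes, 444 to 543 in 2DF, 194 to 262 in 3DF and 164 to 180 in 3DF_50. The epithelium sum was highest in 3DF, and the myofibroblast and endothelium sums were lowest in the embedded conditions. For 3 vessel markers it was 1.81 to 2.84 on the coated dishes, 5.08 to 6.36 in 2DF, where CDH5 was called higher than in 2DC, 2.63 to 4.94 in 3DF and 3.30 to 3.69 in 3DF_50, where PECAM1 was at 0. The 4 leukocyte markers summed to 1.97 to 7.66 in all libraries, with PTPRC at 0 in 2DF. The part of these lists in the results below was not tested.

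On the FPKM scale, the mean level of all 10 regulators was highest on a coated dish, in 2DC for 4 genes and in 2DC_L for 6. The lowest mean was in 3DF_50 for 6 regulators, in 3DF for 3 and in 2DF for 1, CDC25A. In CPM, counts scaled to the library total alone, 9 of the 10 were highest on a coated dish, the exception being PKMYT1, and the order of the 5 means was the same as in FPKM for 7. How many of all genes were highest on a coated dish, or lowest in each matrix condition, was not determined. Whether these counts of regulators are unusual therefore cannot be told. In bulk RNA, fewer cells in the cycle and less of each transcript per cell cannot be told apart.

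**Figure D1:**
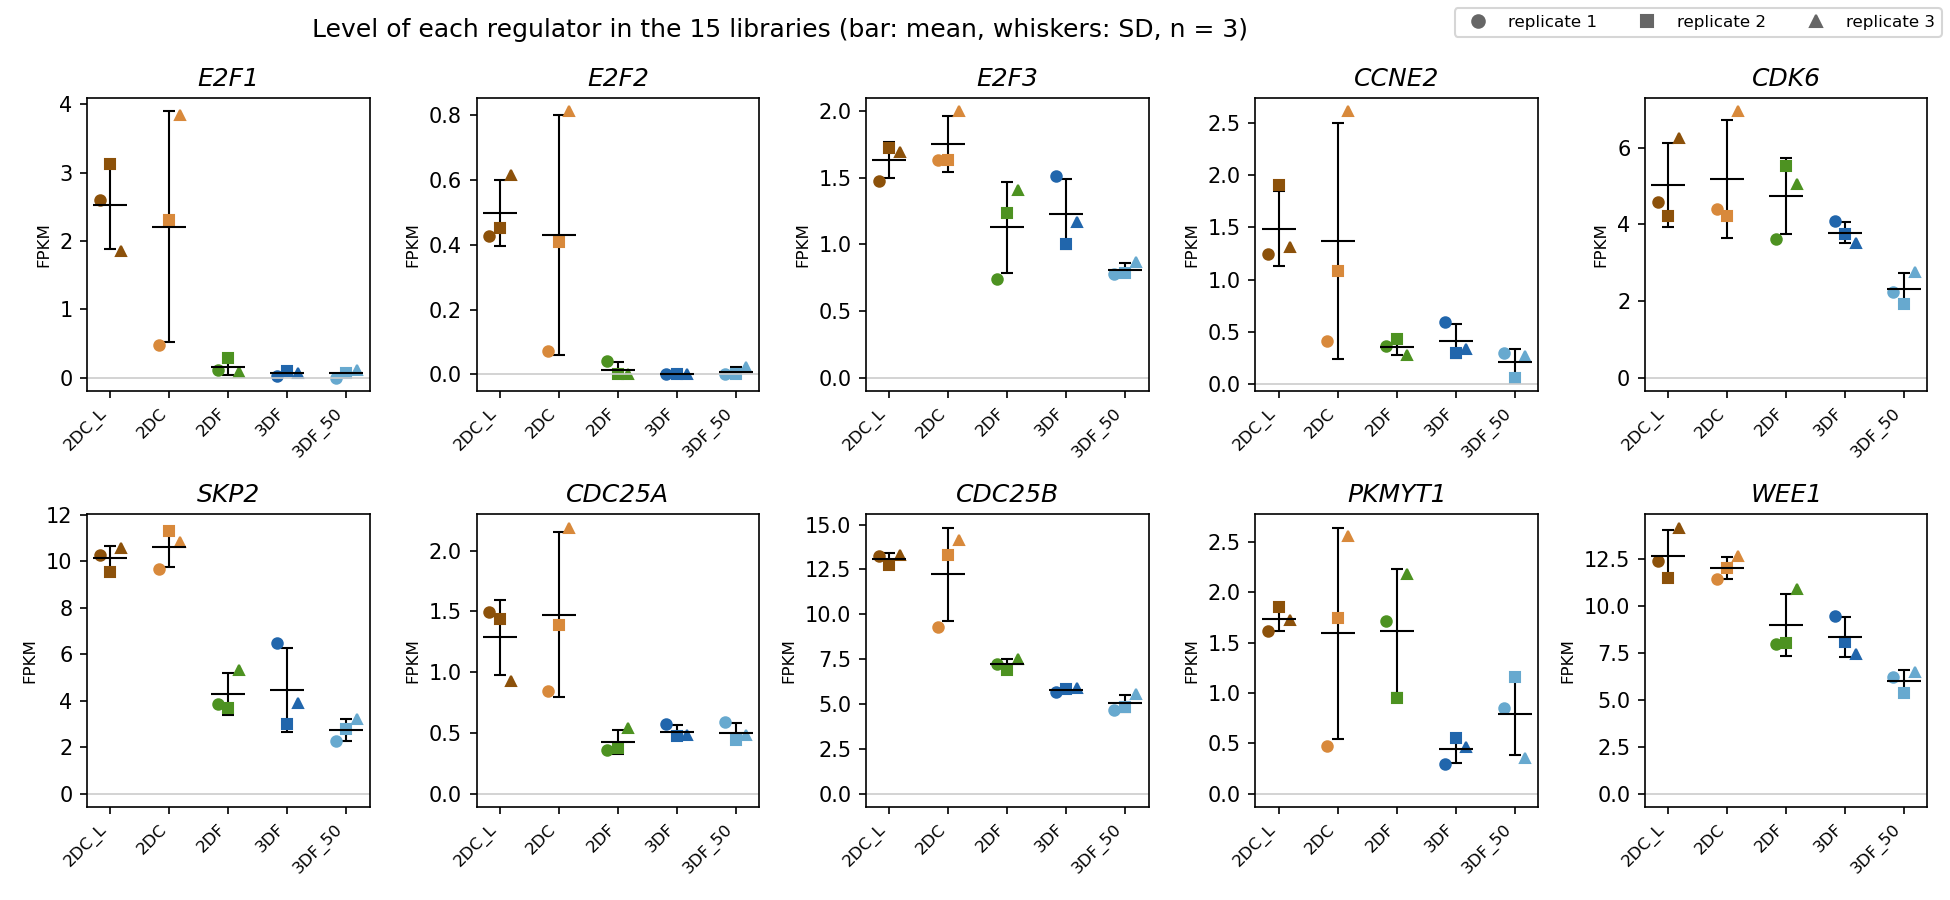
Level of each of the 10 regulators in FPKM (vertical axis, its own scale in each panel) in the 15 libraries by condition; circles, squares and triangles are replicates 1, 2 and 3, the bar is the mean and the whiskers the SD of 3 libraries. The 3 libraries of 2DC spread from 0.475 to 3.85 for E2F1 and only from 11.4 to 12.6 for WEE1.

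E2F1 and E2F2 drive the onset of S phase. E2F1 (chr4:6004131-6012568 of the oryCun2 build, plus strand) was read at 0.475, 2.31 and 3.85 FPKM in the 2DC libraries and at 2.60, 3.12 and 1.85 FPKM in those of 2DC_L. In 2DF it stood at 0.103, 0.280 and 0.0776 FPKM, in 3DF at 0.0180, 0.0995 and 0.0669 FPKM, and in 3DF_50 at 0, 0.0728 and 0.114 FPKM. Every library from a coated dish was above every library from a fibrillar matrix, although the lowest 2DC library, replicate 1, was much nearer to 2DF than the other 2 were. In 3DF vs. 2DC the gene fell, and the fitted log2 fold change was -5.15 with an SE of 0.89 (n = 3 and 3, edgeR quasi-likelihood adjusted p = 0.00657). In 2DF vs. 2DC it fell too, at -3.80 with an SE of 0.80 (edgeR adjusted p = 0.0153). These comparisons share the 2DC libraries, through which the gene passed the filter on low counts. The reads behind the low values were few, with 9 in the 3DF libraries together against 333 in those of 2DC, a ratio of 34.2 with an exact 95% counting interval of 17.8 to 75.4. The call in 3DF vs. 2DC was kept in all 6 fits that left out 1 library, and the call in 2DF vs. 2DC was lost without 2DF replicate 1 (-3.59) or 2DF replicate 3 (-3.49). Here and below a gene is called when its Benjamini-Hochberg adjusted p is at most 0.05 and its log2 fold change is at least 1 in size.

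E2F2 (chr13:129693793-129720445, plus strand) was counted at 9, 38 and 76 reads in the 2DC libraries and at 52, 54 and 43 reads in 2DC_L. In 2DF it had 3, 0 and 0 reads, in 3DF 0 reads in each library, and in 3DF_50 0, 0 and 2 reads. Again the coated-dish libraries did not overlap those from matrices. The filter on low counts removed E2F2 from the tests of the 3 matrix conditions against 2DC, because too few libraries reached the minimum. Without 2DC replicate 1 it passed the filter and was called lower in 3DF and in 2DF. With a floor of 3 counts per library, E2F2 was at least 13.6-fold lower in 3DF than in 2DC and at least 15.7-fold lower than in 2DC_L. The 3 reads of 2DF gave a ratio of 29.4 below 2DC (95% counting interval 9.84 to 145) and the 2 reads of 3DF_50 a ratio of 47.0 (12.7 to 393). These intervals cover counting error only. Against 2DC_L the gene was tested and fell in 2DF (edgeR adjusted p = 0.000904), 3DF (0.000261) and 3DF_50 (0.000108), and no fold from these fits is given since it depends on the prior count. E2F2 passed the filter in these fits only through the 2DC_L libraries, and without 2DC replicate 1 only through those of 2DC. Once tested, it could hardly be called other than lower, so these calls add little to the counts.

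E2F3 (chr12:16561621-16614679, minus strand), the third activating E2F, differed by less between coated dishes and matrices. Its level was 1.63, 1.63 and 2.00 FPKM in 2DC, 1.48, 1.72 and 1.69 in 2DC_L, 0.743, 1.23 and 1.41 in 2DF, 1.51, 1.00 and 1.17 in 3DF, and 0.776, 0.786 and 0.867 in 3DF_50. The 2DF and 3DF_50 libraries lay below every coated-dish library, and the 3DF libraries below every 2DC library. Only 3DF replicate 1 (1.51) was above a coated-dish library, 2DC_L replicate 1 (1.48). The 3DF and 2DF libraries overlapped. The log2 fold change was -0.52 in 3DF vs. 2DC (edgeR adjusted p = 0.124) and -0.63 in 2DF vs. 2DC (0.113), and neither was called. Only against the sparser matrices was E2F3 called, at -1.11 in 3DF_50 vs. 2DC (SE 0.17, edgeR adjusted p = 0.00114) and at -1.004 vs. 2DC_L (SE 0.17, 0.00111). The latter sat at the fold limit and lay inside it without 2DC_L replicate 2 or 3 or 3DF_50 replicate 1 or 2, at -0.98 to -0.96.

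CCNE2 (chr3:110485548-110501533, minus strand) encodes cyclin E2, which activates CDK2 at the start of S phase. Its level in 2DC was 0.412, 1.08 and 2.61 FPKM and in 2DC_L 1.24, 1.90 and 1.32 FPKM. In 2DF it was 0.369, 0.434 and 0.278 FPKM, in 3DF 0.596, 0.303 and 0.340 FPKM, and in 3DF_50 0.298, 0.0653 and 0.267 FPKM. The 2DC_L libraries were all above those of the matrices, but 2DC replicate 1 lay within the range of 2DF and 3DF. Against 2DC the log2 fold changes were -1.71 in 3DF (SE 0.63, edgeR adjusted p = 0.107) and -1.90 in 2DF (SE 0.62, 0.0733), not called. Without 2DC replicate 1 both were called, at -2.16 and -2.34. DESeq2 on all libraries also called both, at -1.73 in 3DF (DESeq2 adjusted p = 0.0252) and -1.92 in 2DF (0.0116). The edgeR fit of all 5 conditions did so too, while limma on log2(FPKM + 1) called neither. Against 2DC_L the gene fell in 2DF (-2.03, edgeR adjusted p = 0.00160), 3DF (-1.84, 0.00391) and 3DF_50 (-2.82, 0.000585), each kept in all 6 fits without 1 library. With the library-name prefix as a term, described below, it was -0.15 in 2DF vs. 2DC_L, not called, and 0.81 in 2DF vs. 2DC. It also fell in 3DF_50 vs. 2DC (-2.68, 0.0183), a call lost without 3DF_50 replicate 2 (-2.26) or 3DF_50 replicate 3 (-2.90).

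CDK6 (chr10:35993872-36226222, plus strand) is the kinase that acts with D-type cyclins on RB. It was read at 4.39, 4.22 and 6.95 FPKM in 2DC, 4.58, 4.21 and 6.27 in 2DC_L, 3.62, 5.53 and 5.05 in 2DF, 4.08, 3.76 and 3.51 in 3DF, and 2.22, 1.92 and 2.76 in 3DF_50. The first 3 conditions overlapped throughout, and all 3 libraries of 3DF_50 were below every other library. CDK6 fell in 3DF_50 vs. 2DC (log2 fold change -1.17, SE 0.21, edgeR adjusted p = 0.00236), vs. 2DC_L (-1.12, SE 0.17, 0.000584) and vs. 2DF (-1.02, SE 0.17, 0.00259). The first was lost without 2DC replicate 3 (-0.91), the second without 2DC_L replicate 3 (-0.93), and the third without 2DF replicate 2 or 3 or 3DF_50 replicate 1 or 2 (-0.998 to -0.907). The difference in 3DF vs. 3DF_50, 0.69 on the log2 scale with an SE of 0.16, was not called (edgeR adjusted p = 0.0827). A gene model on the opposite strand, LOC108177200, overlaps CDK6 and had 0 to 7 reads per library.

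SKP2 (chr11:57343343-57378205, plus strand) had little spread on the coated dish. It was read at 9.66, 11.3 and 10.8 FPKM in 2DC and at 10.3, 9.54 and 10.6 FPKM in 2DC_L. In 2DF it was 3.85, 3.67 and 5.33 FPKM, in 3DF 6.50, 3.00 and 3.92 FPKM, and in 3DF_50 2.25, 2.80 and 3.20 FPKM. Every coated-dish library was above every matrix library, with 3DF replicate 1 the highest of the latter. SKP2 fell in 2DF vs. 2DC (-1.30 on the log2 scale, SE 0.15, edgeR adjusted p = 0.00116) and in 3DF vs. 2DC (-1.25, SE 0.25, 0.0124). The first call was kept in all 6 fits without 1 library, and the second was lost without 2DC replicate 2 (-1.21) or 3DF replicate 3 (-1.17). The fall was -1.94 in 3DF_50 vs. 2DC (SE 0.14, edgeR adjusted p = 2.17e-05) and -1.87 vs. 2DC_L (SE 0.14, 6.95e-06). It was also called against 2DC_L in 2DF (-1.23, 0.000391) and 3DF (-1.17, 0.00889), the latter not without 3DF replicate 2 (-0.95).

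CDC25A and CDC25B remove inhibitory phosphates from cyclin-dependent kinases, CDC25A from G1 onwards and CDC25B at the start of mitosis. CDC25A (chr9:15983272-16002402, minus strand) stood at 0.845, 1.39 and 2.19 FPKM in 2DC and at 1.49, 1.44 and 0.931 FPKM in 2DC_L. It was at 0.359, 0.374 and 0.542 FPKM in 2DF, 0.577, 0.472 and 0.483 FPKM in 3DF, and 0.588, 0.441 and 0.480 FPKM in 3DF_50. No matrix library reached the lowest coated-dish library, and the 3 matrix conditions overlapped. CDC25A fell in 3DF vs. 2DC (log2 fold change -1.53, SE 0.36, edgeR adjusted p = 0.0234) and in 2DF vs. 2DC (-1.78, SE 0.38, 0.0167). Of the 6 fits without 1 library, 2 kept the first call (the value ranging from -1.81 to -1.12) and 3 the second (-2.06 to -1.38). The first was lost without 2DC replicate 2 or 3 or 3DF replicate 2 or 3, the second without 2DC replicate 2 or 2DF replicate 1 or 2. In 3DF_50 vs. 2DC (-1.54, edgeR adjusted p = 0.00983), and against 2DC_L in 2DF (-1.60, 0.00457), 3DF (-1.34, 0.00646) and 3DF_50 (-1.37, 0.00271), the calls were kept in all 6 fits without 1 library. With the library-name prefix as a term, described below, the calls in 3DF_50 vs. 2DC (-1.11) and 2DF vs. 2DC_L (-1.58) were lost.

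CDC25B (chr4:10663300-10672745, plus strand) was, with WEE1 and SKP2, among the 3 regulators with the highest mean FPKM in 2DC. Its level was 9.27, 13.3 and 14.1 FPKM in 2DC, 13.2, 12.8 and 13.3 in 2DC_L, 7.25, 6.88 and 7.51 in 2DF, 5.67, 5.84 and 5.89 in 3DF, and 4.68, 4.83 and 5.58 in 3DF_50. None of the 2DC, 2DF and 3DF libraries overlapped between conditions. CDC25B fell in 3DF vs. 2DC (log2 fold change -1.09, SE 0.17, edgeR adjusted p = 0.00417), and without 2DC replicate 3 the value was -0.96, short of the fold limit. In 2DF vs. 2DC it had an adjusted p below the limit but a smaller fold (-0.75, SE 0.15, edgeR adjusted p = 0.0130), as it did in 2DF vs. 2DC_L (-0.85, 0.000227). In 3DF vs. 2DF the difference was -0.31 (SE 0.14, edgeR adjusted p = 0.233), not called. The fall was -1.28 in 3DF_50 vs. 2DC (0.000427), -1.38 in 3DF_50 vs. 2DC_L (7.17e-06) and -1.18 in 3DF vs. 2DC_L (0.000166), each kept in all 6 fits.

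PKMYT1 (on the unplaced scaffold Un0130, 225811 to 239629, minus strand), the membrane-bound inhibitor of CDK1, was the 1 regulator called between 3DF and 2DF. It was read at 0.478, 1.74 and 2.56 FPKM in 2DC, 1.62, 1.85 and 1.72 in 2DC_L, 1.71, 0.953 and 2.18 in 2DF, 0.298, 0.558 and 0.463 in 3DF, and 0.848, 1.16 and 0.357 in 3DF_50. The 3DF libraries were below every 2DF library but overlapped those of 3DF_50 and 2DC replicate 1. PKMYT1 fell in 3DF vs. 2DF (log2 fold change -1.87, SE 0.39, edgeR adjusted p = 0.0208), a call lost without 2DF replicate 1 (-1.83), 2DF replicate 3 (-1.59) or 3DF replicate 3 (-1.91). In 3DF vs. 2DC it was -1.85 (SE 0.58, edgeR adjusted p = 0.0651), and in 2DF vs. 2DC 0.040 (SE 0.54, 0.971). DESeq2 called PKMYT1 in 3DF vs. 2DC, at -1.86 (DESeq2 adjusted p = 0.00764), and limma on log2(FPKM + 1) did not. Against 2DC_L the gene fell in 3DF (-1.98, SE 0.29, edgeR adjusted p = 0.00124), kept in all 6 fits without 1 library, and in 3DF_50 (-1.14, SE 0.36, 0.0269), kept in 2. The latter was lost without 2DC_L replicate 1 or 2 or 3DF_50 replicate 1 or 3 (-1.19 to -0.79). PAQR4 overlaps PKMYT1 on the opposite strand, and whether counting used strand was not given in the sources used here. PAQR4 itself averaged 2.87 FPKM over the 2DC libraries, 2.93 over those of 2DF and 2.50 over those of 3DF.

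WEE1 (chr1:151369514-151398270, plus strand), the nuclear counterpart of PKMYT1, varied least between the libraries of 2DC. It was read at 11.4, 12.0 and 12.6 FPKM in 2DC, 12.4, 11.5 and 14.2 in 2DC_L, 7.97, 8.04 and 10.9 in 2DF, 9.48, 8.08 and 7.44 in 3DF, and 6.21, 5.37 and 6.45 in 3DF_50. All coated-dish libraries were above all matrix libraries, and 3DF_50 was below the other matrices. The log2 fold change was -0.54 in 3DF vs. 2DC (SE 0.12, edgeR adjusted p = 0.0216) and -0.42 in 2DF vs. 2DC (SE 0.13, 0.0597), neither called. In 3DF_50 it was -0.996 vs. 2DC (SE 0.094, edgeR adjusted p = 8.45e-05), just inside the fold limit, and -1.07 vs. 2DC_L (SE 0.11, 4.98e-05), just past it and called. The latter fell short of the fold limit without 2DC_L replicate 3 or 3DF_50 replicate 2 (-0.99 in both).

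**Figure D2:**
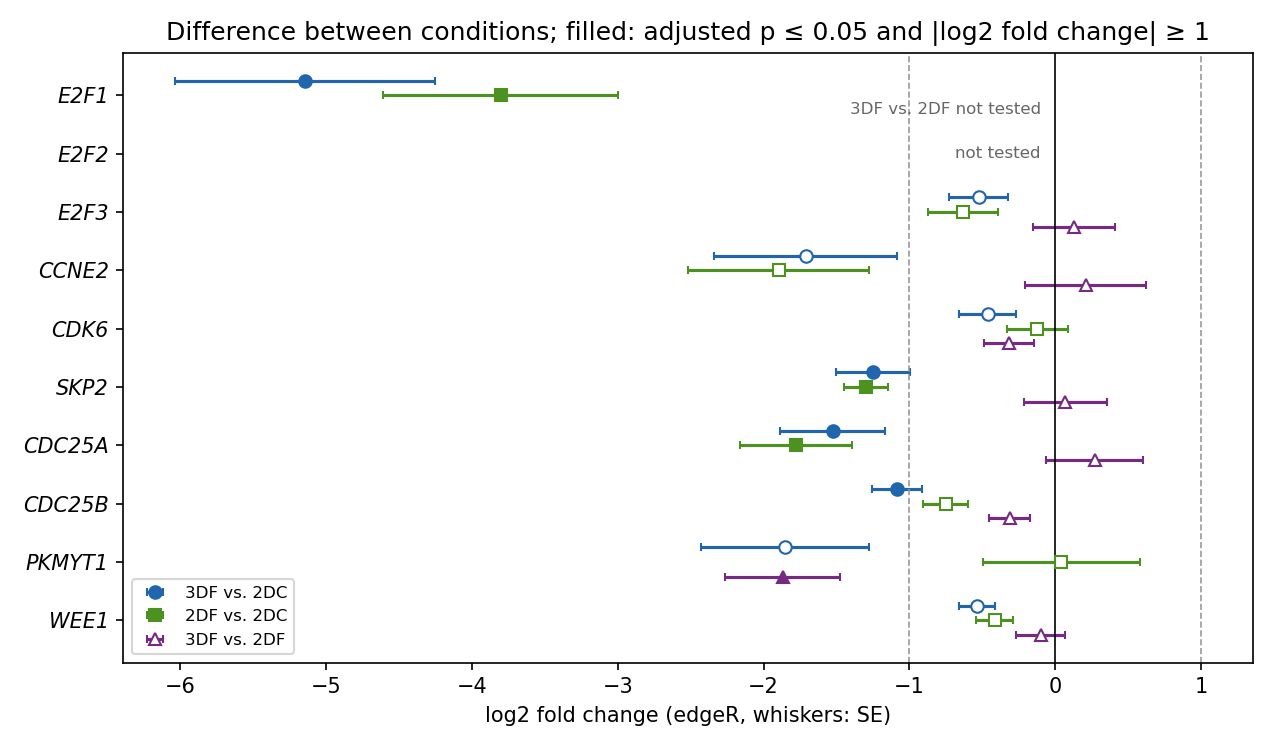
Log2 fold change of each regulator (horizontal axis, edgeR, whiskers SE, n = 3 per condition) in the 3 comparisons among 2DC, 2DF and 3DF; filled symbols are called and dashed lines mark the fold limit. All called values are negative, E2F1 lies farthest from 0 at -5.15, and PKMYT1 is the filled symbol of 3DF vs. 2DF.

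Counted over the genes, 3DF vs. 2DC called 4 of the 9 regulators tested (E2F1, SKP2, CDC25A and CDC25B), all lower, where 4.32% of all 13493 genes tested were called lower. All 9 had negative log2 fold changes, with a median of -1.25 beside 0.012 for all genes. In 2DF vs. 2DC, 3 of 9 were called lower (E2F1, SKP2 and CDC25A), against 2.93% of all genes. E2F1 passed the filter in both through the 2DC libraries, so its direction was nearly fixed once it was tested. The count in 3DF vs. 2DC became 7 without 2DC replicate 1, the additions being CCNE2, E2F2 and PKMYT1. It became 2 without 2DC replicate 2 or without 2DC replicate 3. Over all genes, 640, 434 and 490 were called lower without 2DC replicates 1, 2 and 3, beside 583 in the full fit. The count in 2DF vs. 2DC became 5 without 2DC replicate 1 and 1, SKP2, without 2DF replicate 1. Over all genes, 435 and 212 were then called lower, beside 388.

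In 3DF vs. 2DF, 1 of 8 was called lower (PKMYT1), against 1.69% of all genes, and it was called in none of the fits without 2DF replicate 1, 2DF replicate 3 or 3DF replicate 3. E2F1 and E2F2 were too low in all matrices to be tested there. The other 7 had log2 fold changes between -0.32 and 0.27, with edgeR adjusted p from 0.233 to 0.912. In 3DF_50 vs. 2DF, 1 of 8 was called lower (CDK6), against 3.01% of all genes, and 0 were called in each of 4 of the 6 fits without 1 library, those named above for CDK6.

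The embedded cells at 50000 per matrix were compared with both coated-dish conditions. In 3DF_50 vs. 2DC, 7 of 9 were called lower, against 7.33% of all genes, PKMYT1 and WEE1 being the exceptions. In 3DF_50 vs. 2DC_L all 10 were called lower, against 8.47% of all genes, although E2F3, at -1.004, and WEE1 lay close to the fold limit. Scaled by library size alone these counts were 4 and 6, and with limma on log2(FPKM + 1) they were 3 and 4. The genes called lower over all genes, 983 and 1128 in the main fits, were then 633 and 747, and 525 and 627. In the fits without 1 library, 6 to 10 regulators were called in 3DF_50 vs. 2DC and 7 to 9 in 3DF_50 vs. 2DC_L. No such fit thus kept all 10 against 2DC_L. Over all genes, 857 to 1042 and 1029 to 1264 were called lower in these fits. In 3DF vs. 2DC_L, 7 of 10 were called lower, against 5.98%, the exceptions being E2F3, CDK6 and WEE1. In 2DF vs. 2DC_L, 5 of 10 were called lower, against 4.46%, namely E2F1, E2F2, CCNE2, SKP2 and CDC25A. These comparisons share libraries with one another and are not independent counts. The counts include E2F1 and, against 2DC_L, E2F2, which passed the filter only because of the coated-dish libraries. With 0 to 5 and 0 to 2 reads in the 3DF_50 libraries, and as few in the other matrices, a lower call was nearly fixed for them.

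**Figure D3:**
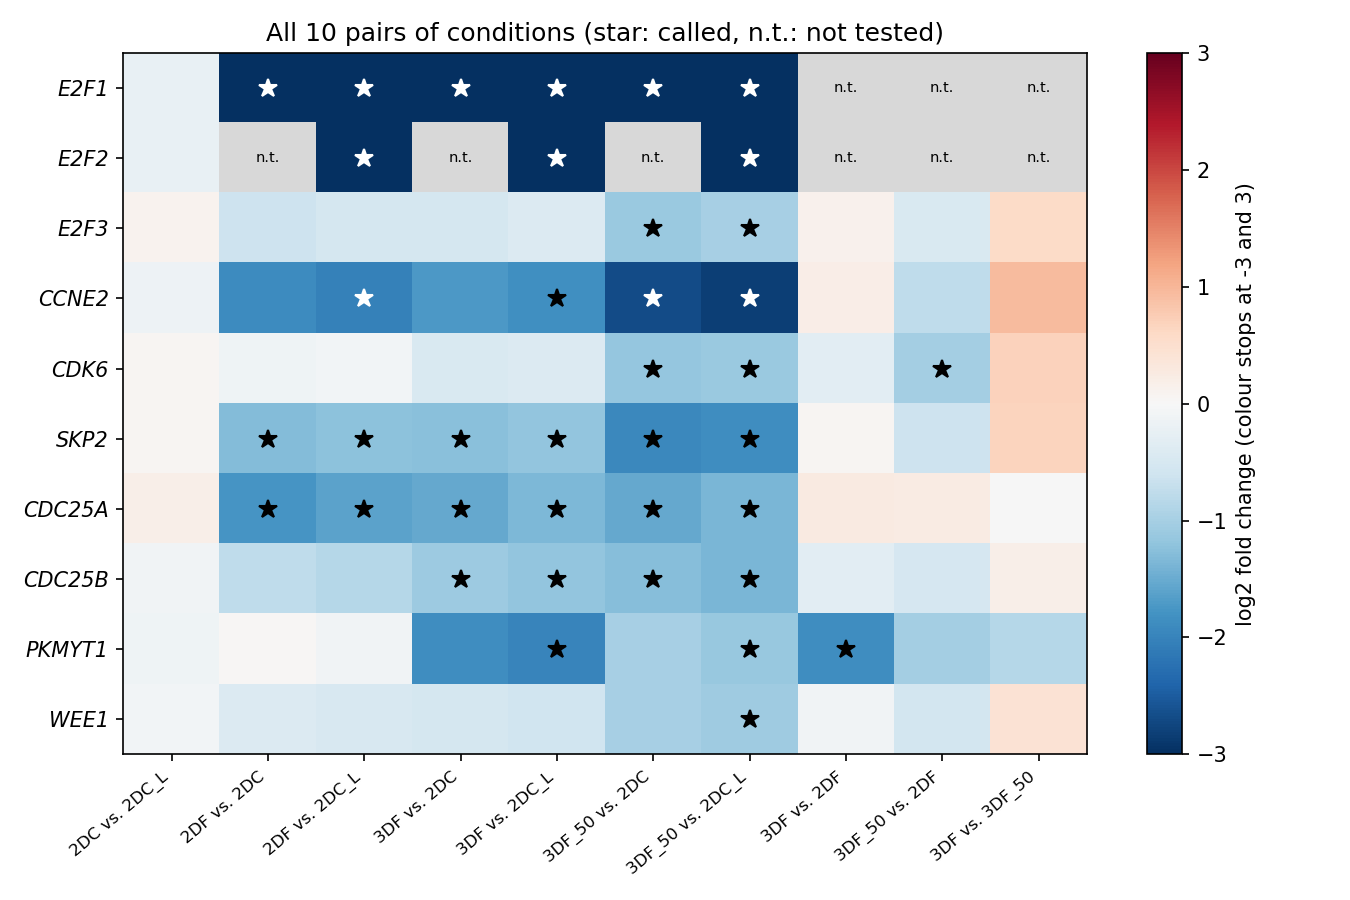
Log2 fold change of the 10 regulators (rows) in the 10 pairs of conditions (columns); blue is lower in the first condition of the pair, stars mark called genes and n.t. genes removed by the filter on low counts. Stars fill the column of 3DF_50 vs. 2DC_L, where 10 of 10 were called, and are missing from 2DC vs. 2DC_L and 3DF vs. 3DF_50.

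Cell density and the digestion step were compared directly. In 3DF vs. 3DF_50, edgeR called 0 of 8 regulators, against 0.452% of all genes called in either direction. At an unadjusted p under 0.05 there were 4 of the 8, and DESeq2 and limma called 0. The log2 fold changes ran from -0.87 for PKMYT1 (SE 0.46) to 0.95 for CCNE2 (SE 0.53), with a median of 0.51 and CDC25A at -0.00080. In 2DC vs. 2DC_L, edgeR called 0 of 10, against 0.265% of all genes called in either direction. None of the 10 had an unadjusted p under 0.05, DESeq2 and limma called 0, and the log2 fold changes were 0.052 to 0.22 in size. The SE of that comparison reached 0.65 for E2F2 and 0.59 for E2F1. Differences in these genes at the fold limit, and somewhat beyond it, could thus go uncalled at this depth and number of libraries.

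The spread within 2DC was itself uneven between regulators. The highest 2DC library was 11.2 times the lowest for E2F2, 8.10 times for E2F1, 6.33 times for CCNE2 and 5.36 times for PKMYT1. It was 2.59 times for CDC25A, 1.65 times for CDK6, 1.52 times for CDC25B, 1.23 times for E2F3, 1.17 times for SKP2 and 1.11 times for WEE1. Replicate 1 was the lowest 2DC library for 8 of the 10 and replicate 3 the highest for 9. The proliferation marker MKI67, which cycling cells express, moved with them at 0.199, 1.09 and 3.36 FPKM in the 2DC libraries, and CDK1, the mitotic kinase that WEE1, PKMYT1 and the CDC25 proteins act on, at 0.551, 3.68 and 10.4 FPKM.

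MKI67 was at 0.934, 1.05 and 2.54 FPKM in 2DC_L, at 0.0119, 0.0710 and 0.00601 FPKM in 2DF, at 1, 1 and 0 reads in 3DF and at 0 reads in the 3 libraries of 3DF_50. Across the 15 libraries, which cluster by condition, Pearson's r of log2 CPM (after TMM scaling) with MKI67 was 0.967 for E2F1, 0.963 for CDC25B, 0.951 for E2F2, 0.881 for CCNE2, 0.880 for SKP2 and 0.872 for CDC25A. It was 0.841 for WEE1, 0.788 for E2F3, 0.696 for CDK6 and 0.606 for PKMYT1. After the mean of each condition was subtracted, r was 0.692 for E2F1, 0.658 for CCNE2, 0.639 for CDK6, 0.625 for E2F2 and 0.601 for CDC25B. It was 0.396 for PKMYT1, 0.382 for CDC25A, 0.253 for E2F3, 0.066 for WEE1 and -0.032 for SKP2. With MKI67 at 0 or 1 read in the 3DF and 3DF_50 libraries, these values rest mainly on 2DC, 2DC_L and 2DF. SKP2 and WEE1 had nearly equal levels in 2DC libraries that differed widely in MKI67, and E2F1 did not. In 2DC_L the library with the most MKI67, replicate 3, had the least E2F1. These values describe shared libraries and carry no test.

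**Figure D4:**
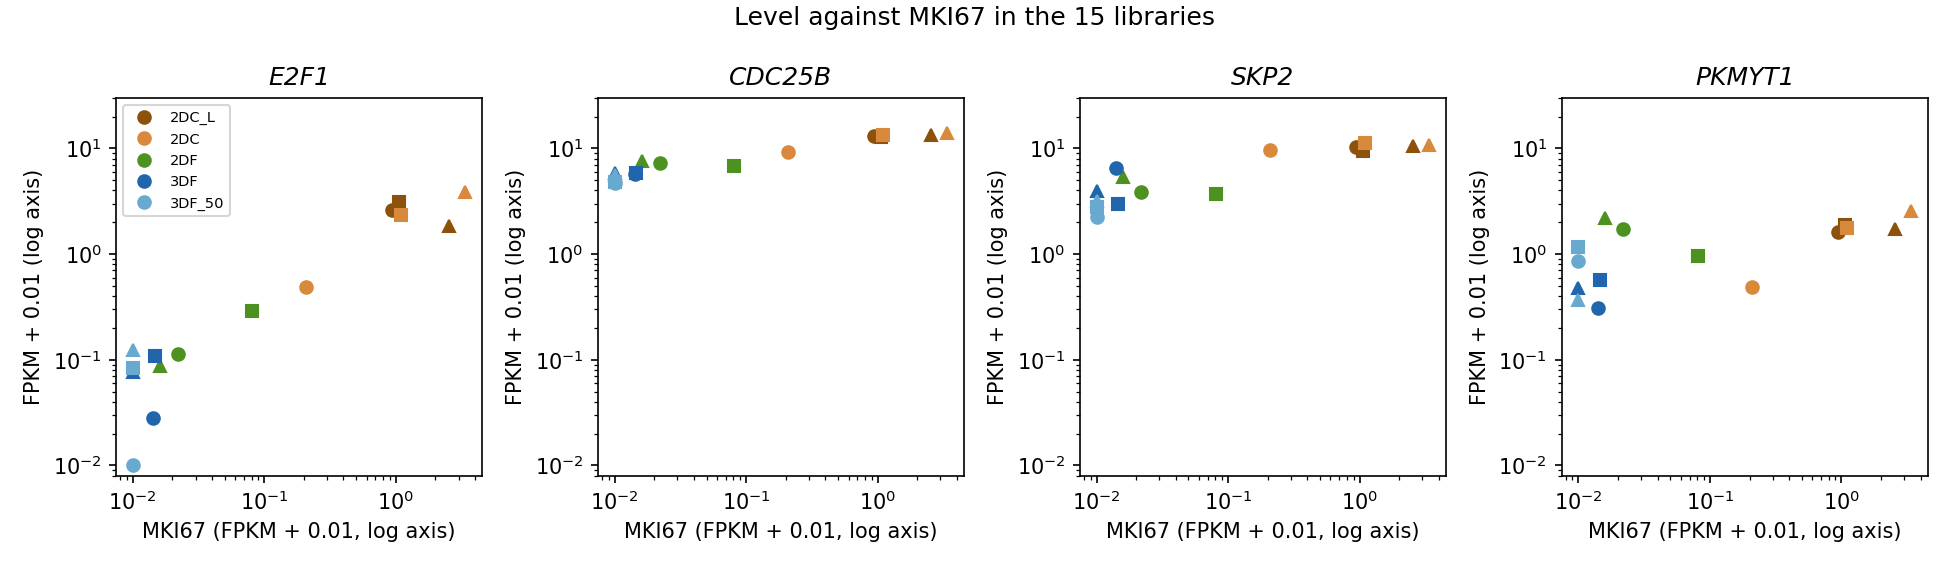
Level of E2F1, CDC25B, SKP2 and PKMYT1 (vertical axis) against MKI67 (horizontal axis), both as FPKM + 0.01 on log axes, in the 15 libraries coloured by condition, with circles, squares and triangles for replicates 1, 2 and 3. E2F1 is high where MKI67 is high across conditions (r = 0.967 for log2 CPM over all libraries) and within 2DC, but the 2DC_L library with the most MKI67 has the least E2F1, and SKP2 is flat across the coated-dish libraries.

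The RNA levels of regulators with opposed or overlapping roles were also set against each other. WEE1 over PKMYT1, on the FPKM scale, was 23.9, 6.88 and 4.93 in 2DC, 7.63, 6.19 and 8.21 in 2DC_L, 4.66, 8.43 and 5.00 in 2DF, 31.8, 14.5 and 16.1 in 3DF, and 7.32, 4.63 and 18.1 in 3DF_50. All 3DF libraries were above all 2DF libraries in this ratio, but 2DC replicate 1 lay within the range of 3DF. CDC25B over CDC25A was 11.0, 9.61 and 6.45 in 2DC, 8.87, 8.89 and 14.3 in 2DC_L, 20.2, 18.4 and 13.9 in 2DF, 9.83, 12.4 and 12.2 in 3DF, and 7.96, 11.0 and 11.6 in 3DF_50. It was higher in each 2DF library than in any 2DC, 3DF or 3DF_50 library, while 2DC_L replicate 3 overlapped 2DF. E2F3 over E2F1 was 3.44, 0.706 and 0.519 in 2DC, 0.567, 0.552 and 0.916 in 2DC_L, 7.23, 4.39 and 18.1 in 2DF, 84.2, 10.1 and 17.4 in 3DF, and 10.8 and 7.57 in 3DF_50 replicates 2 and 3, E2F1 being at 0 in replicate 1. E2F3 was the more highly read of the pair in 2DC replicate 1 and in all matrix libraries with a ratio, which rest on 1 to 11 reads of E2F1. No test was made of these ratios.

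**Figure D5:**
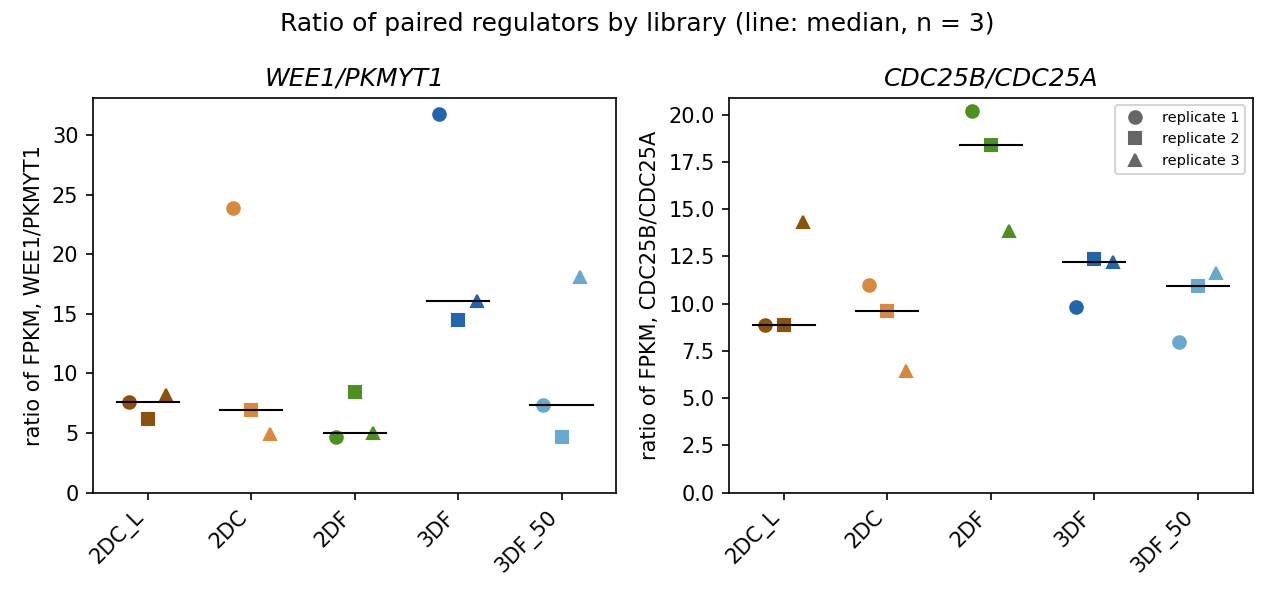
Ratio of WEE1 to PKMYT1 and of CDC25B to CDC25A, from FPKM, in each library by condition; the line is the median of 3 libraries and the symbols are replicates 1, 2 and 3. The first ratio is 14.5 to 31.8 in 3DF and 4.66 to 8.43 in 2DF, and the second is 13.9 to 20.2 in 2DF and 6.45 to 11.0 in 2DC.

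Library names carry prefixes that some conditions share, and whether a prefix marks an experiment was not given in the sources used here. Within a shared prefix, all 10 regulators were lower in 3DF replicate 1 than in 2DC replicate 3, with a median difference of -1.58 in log2 CPM. The same held for 3DF_50 replicate 1 against 2DC replicate 2 (median -1.34) and 2DC_L replicate 2 (-1.34). It held for 3DF replicate 2 (-1.36) and 3DF_50 replicate 3 (-1.47) against 2DC_L replicate 3. For 3DF_50 replicate 3 against 3DF replicate 2, 6 of 10 were lower with a median of -0.11, and for 3DF_50 replicate 2 against 2DF replicate 1, 8 of 10 with a median of -0.57. On the coated dish, 2DC replicate 1 was below 2DC_L replicate 1 in 9 of 10 (median -0.65), and 2DC replicate 2 was below 2DC_L replicate 2 in 7 (median -0.069). Each pair sets single libraries side by side, and E2F1 and E2F2 had few reads in the matrices. The share of all genes that were lower in each pair was not determined, so whether these counts are unusual cannot be told. No prefix is shared by 2DF and 2DC, which are linked only through 3DF_50 libraries. In a fit of all 5 conditions with the prefix as a term, 0 regulators were called in any comparison with 2DF. The prefixes of 2DF replicates 2 and 3 occur in no other library, so these comparisons rest on 2DF replicate 1. Over all genes the calls fell from 658 to 16 in 2DF vs. 2DC and from 499 to 4 in 3DF vs. 2DF. They fell from 972 to 87 in 2DF vs. 2DC_L and from 587 to 236 in 3DF_50 vs. 2DF. The count of 0 therefore cannot decide whether the regulators differ. That fit put 2DF vs. 2DC at -4.09 on the log2 scale for E2F1, -1.30 for SKP2 and -1.38 for CDC25A, and 0.81 for CCNE2.

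The wider pathway was described with 6 lists of partner, regulator and target genes. In 3DF vs. 2DC, 13 of the 58 genes tested were called lower and 0 higher, and in 2DF vs. 2DC, 12 of 56 lower and 0 higher, where 4.32% and 2.93% of all genes tested were called lower. These counts include CDK1, which had 1, 0 and 1 reads in the 3DF libraries and 0, 4 and 1 in those of 2DF. It passed the filter through the 2DC libraries (21, 105 and 299 reads), so a lower call was nearly fixed for it. How many other called pathway genes were as low in the matrices was not determined. Among replication genes that E2F factors control, 6 of 17 were called lower in both (against the same 4.32% and 2.93% of all genes), namely MCM4, MCM5, CDT1, RRM2, TK1 and POLE, with a list median log2 fold change of -1.10 in 3DF vs. 2DC and -1.32 in 2DF vs. 2DC. MCM4 and MCM5, subunits of the replicative helicase, were at -1.68 and -1.74 in 3DF vs. 2DC. CDT1, which loads that helicase, was at -2.79 and RRM2, a subunit of ribonucleotide reductase, at -3.80. In 3DF vs. 2DC the calls of CDT1 and RRM2 were kept in all 6 fits without 1 library, and those of MCM4 (-2.04 to -1.16) and MCM5 (-2.15 to -1.33) were kept only without 2DC replicate 1.

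Of 9 RB, DP and other E2F genes, 1 was called lower in each of these comparisons, the repressor E2F8. Beside this and the list counts that follow, 4.32% of all genes were called lower in 3DF vs. 2DC and 2.93% in 2DF vs. 2DC. Of the MuvB complex and its partners, FOXM1 and MYBL2 of 7 were called lower in 3DF vs. 2DC, and FOXM1 of 6 in 2DF vs. 2DC. FOXM1, which activates genes of mitosis, was at -1.73 in 3DF vs. 2DC. Among the SCF and APC/C genes with p27, 2 of 8 were called lower in both, CKS1B and CKS2. The call of CKS2 in 2DF vs. 2DC was kept only without 2DC replicate 1, the values of the 6 fits running from -3.03 to -1.54, and in 3DF vs. 2DC it was lost without 3DF replicate 3 (-3.53). CKS1B, the cofactor with which SKP2 binds p27, was at -1.04 in 3DF vs. 2DC, a call lost without 2DC replicate 3 (-0.86) or 3DF replicate 1 (-0.98). Of the G1 and S cyclins and kinases, 0 of 6 were called in 3DF vs. 2DC and 1, CCNA2, in 2DF vs. 2DC (-1.44), kept only without 2DC replicate 1 (-1.76). Of those 6 genes in 3DF vs. 2DC, 5 had an unadjusted edgeR p under 0.05, and DESeq2 called 1 and limma 0. Among the other genes of mitotic entry, CDK1 and CCNB2 of 11 were called lower in 3DF vs. 2DC, and CDK1 of 10 in 2DF vs. 2DC.

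Without 2DC replicate 1 the pathway counts were 24 in 3DF vs. 2DC and 22 in 2DF vs. 2DC. The second count was 7 without 2DC replicate 2, 2 without 2DF replicate 1, 5 without 2DF replicate 2 and 6 without 2DF replicate 3. Over all genes, 237, 212, 313 and 356 were called lower in these 4 fits, beside 388 in the full fit. In 3DF vs. 2DF, edgeR called 0 of the 51 pathway genes tested, where 3.78% of all genes were called in either direction. A count of 0 is near that share and does not show that these genes were unchanged. Of the 51, 9 had an unadjusted edgeR p under 0.05, and DESeq2 and limma called 0.

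The genes most like each regulator across the 15 libraries, by Pearson's r of the same log2 CPM among 10644 or 10645 genes with a symbol and a mean of at least 1 CPM, are given here 2 to a regulator. For E2F1 they were TK1 (r = 0.986) and MYBL2 (0.979), for E2F2 MYBL2 (0.976) and STIL (0.973), and for CDC25A MCM4 (0.957) and RRM2 (0.951). For CCNE2 they were FANCI (0.966) and FABP5 (0.947). They were CAV1 (0.989) and HMGCS1 (0.983) for CDC25B, DENND4A (0.977) and PDXDC1 (0.970) for SKP2, TFG (0.983) and CALU (0.979) for WEE1, and SPIN4 (0.976) and CASK (0.959) for E2F3. CDK6 had MPDZ (0.945) and ASAP1 (0.931), and PKMYT1, with the lowest values, ANXA3 (0.887) and GDE1 (0.878). These correlations share the separation of the conditions and are a description only.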

How the data were processed

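Bulk RNA-seq of 15 libraries was analysed. The authors' deposited counts are raw reads per gene, aligned to oryCun2 with HISAT2 and counted with featureCounts. The authors' deposited FPKM values scale these counts to gene length and to a library total of their choice. The strand setting and the annotation version were not given in the sources used here. Conditions came from the library labels, and all value columns were used.

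Each of the 10 pairs of conditions was fitted alone, on counts normalised by TMM after filterByExpr at its minimum count of 10. The quasi-likelihood F test of edgeR 4.0.16 (R 4.3.3, two-sided) was adjusted over all genes tested by Benjamini-Hochberg. The SE is the size of the log2 fold change divided by the square root of F. The p-values set the difference between conditions against the spread between 3 libraries per condition, an estimate that draws on all genes. The main fits treat all libraries as independent, also those that share a name prefix. Levels and ratios are FPKM, and within-prefix differences and correlations use log2 CPM after TMM with a prior count of 2. The floor was 3 counts per library, and counting intervals are exact at 95%. The scripts were tested on simulated counts with 200 changed genes.

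Alternatives were DESeq2 1.42.0, limma 3.58.1 on log2 FPKM with a pseudocount of 1 or 0.1, other scalings and filters, blocks, and fits without each library. Members, gene lists and the rule for named genes (all members, called pathway genes, and the 2 genes most like each member) were chosen with earlier results of these data known. The motif search of promoters was not run. Of the called pathway genes only some are given with values.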

Additional observations from a re-analysis of the deposited data

How the results depend on the processing

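With 3 libraries per condition and few reads for E2F1, E2F2, CCNE2, CDC25A and PKMYT1, their differences are the least precise. The regulators called in 3DF vs. 2DC (4) became 7 with DESeq2, 7 with all 5 conditions in the fit, 1 with limma on log2(FPKM + 1), and 2 to 7 when 1 library was left out. The calls over all genes (1020) moved as well, to 1153, 1147, 527 and 750 to 1028 in the same order. In 2DF vs. 2DC (3) there were 5 with DESeq2, without the filter, or with all 5 conditions, 1 with limma at either pseudocount, 0 with the name prefix as a block, and 1 to 5 without 1 library. Over all genes (658) there were 796, 772 and 816 in the first 3 of these. There were 296 and 449 with limma at pseudocounts of 1 and 0.1, 16 with the prefix block, and 410 to 670 without 1 library. In 3DF vs. 2DF (1) there were 0 with the prefix block or limma at either pseudocount, and 0 to 1 without 1 library. In 3DF_50 vs. 2DC (7) there were 4 scaled by library size only and 3 with limma on log2(FPKM + 1). In 3DF_50 vs. 2DF (1) there were 0 by library size only, with the prefix block or with limma at either pseudocount, 3 with no fold limit, and 0 to 1 without 1 library. In 3DF_50 vs. 2DC_L (10) there were 7 to 9 without 1 library, 6 by library size only and 4 with limma on log2(FPKM + 1). That limma fit called 3 in 3DF vs. 2DC_L (7) and 2 in 2DF vs. 2DC_L (5), where the prefix block called 0. Scaling by library size only moved the median of all genes by 0.19 in 3DF vs. 2DC, 0.11 in 2DF vs. 2DC, -0.15 in 3DF vs. 3DF_50, 0.37 in 3DF_50 vs. 2DC, 0.25 in 3DF_50 vs. 2DF, 0.36 in 3DF_50 vs. 2DC_L, 0.18 in 3DF vs. 2DC_L and 0.11 in 2DF vs. 2DC_L. With the prefix block, CDC25A (-1.11) and E2F3 (-0.97) were no longer called in 3DF_50 vs. 2DC, nor E2F3 (-0.998) in 3DF_50 vs. 2DC_L. The causes were not tested. Since 2DF shares only 1 prefix with any other condition, its comparisons under the prefix block rest on 2DF replicate 1.

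The alternatives for the pathway lists were chosen after seeing the data. The count of 13 in 3DF vs. 2DC became 20 with DESeq2, 20 with all 5 conditions, 21 with the prefix block, 4 and 8 with limma at pseudocounts of 1 and 0.1, and 9 to 24 without 1 library. The count of 12 in 2DF vs. 2DC became 19 without the filter or with all 5 conditions, and 0 with the prefix block, where 16 of all genes were called. It became 3 and 1 with limma at pseudocounts of 1 and 0.1, and 2 to 22 without 1 library. In 3DF vs. 2DF 1 was called with no fold limit.

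Reversals were seen only in values that were not called. With the prefix block the log2 fold change of CCNE2 was 0.81 in 2DF vs. 2DC, -2.54 in 3DF vs. 2DF and -0.069 in 3DF vs. 3DF_50, that of PKMYT1 -0.75 in 2DF vs. 2DC, and that of CDC25A -0.030 in 3DF vs. 2DF. CDC25A in 3DF vs. 3DF_50 was 0.0031 with DESeq2, 0.012 without the filter, 0.023 with all 5 conditions and 0.0079 or 0.022 with limma at pseudocounts of 1 or 0.1, and ran from -0.096 to 0.12 without 1 library. Without 1 library, PKMYT1 ran from -0.41 to 0.57 and CDK6 from -0.25 to 0.14 in 2DF vs. 2DC, and in 3DF vs. 2DF E2F3 ran from -0.098 to 0.32, SKP2 from -0.31 to 0.27, WEE1 from -0.20 to 0.064 and CCNE2 from -0.16 to 0.37.

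Replicate numbers were not a term in the main fits, and no comparison had correlations of deviations above 0.1 for all 3 numbers. They were 0.322, 0.064 and 0.105 in 2DC vs. 2DC_L, and 0.14, 0.075 and 0.259 in 3DF_50 vs. 2DC_L. Replicates 1 and 2 of 2DC share their prefixes with the same replicates of 2DC_L, and replicate 3 of 3DF_50 with that of 2DC_L. Some pairing by number in these comparisons therefore remains possible. With the replicate number as a block, 5 regulators were called in 3DF vs. 2DC, PKMYT1 being added, 0 in 3DF vs. 2DF, and the counts of the other comparisons were the same. Of 6 libraries, 5 correlated best with their own number in 2DC vs. 2DC_L and in 3DF_50 vs. 2DC_L, and 0 to 2 elsewhere.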
